A study of Sus scrofa with 8 samples.

Results

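The miR-30 family was followed in the corpus luteum of the pig, the gland left in the ovary after ovulation, whose progesterone sustains a pregnancy. Its members were all entries of a custom 1-colour Agilent microRNA (miRNA) array named miR-30, whatever the letter, arm or species. This gave 11 of the 686 miRNA targets on the array, 10 with porcine names and 1 with a human name (hsa-miR-30d-3p), measured by 26 probes on 220 spots of each array. Luteal tissue came from crossbred gilts 6 to 8 months old from a single commercial herd. The cyclic group (4 samples) was not inseminated and was sampled on day 14 of the estrous cycle, and the pregnant group (4 samples) was inseminated at the second estrus and sampled on day 14 of pregnancy. Each sample was hybridised to its own array.

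The miR-30 family descends from 6 hairpin genes that yield the 5p guide strands miR-30a, miR-30b, miR-30c, miR-30d and miR-30e, which share their seed and therefore many targets, together with 3p strands that are usually less abundant. The family is known to repress SNAI1 and so to hold back epithelial-mesenchymal transition, to repress the matrix factor CTGF, to act on the Notch ligand DLL4 in sprouting endothelium, and, for miR-30a, to repress the autophagy gene BECN1. Capillary growth and matrix turnover accompany the formation and regression of the corpus luteum. In the RefSeq gene table of the pig assembly Sscrofa11.1, the 6 genes stand as 3 neighbouring pairs with no other listed gene between the partners: MIR30A with MIR30C-2, MIR30B with MIR30D, and MIR30C-1 with MIR30E. Mature miR-30c comes from both MIR30C-1 and MIR30C-2, so its signal cannot be assigned to either gene.

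The arrays differed in brightness, with 22.8% to 28.8% of the spots well above background and 181 to 223 targets detected on an array. Slide 3 carried 2 arrays of each group (replicates 3 and 4). Replicates 1 and 2 were split by group, the pregnant ones to slide 1, which had a scan day of its own, and the cyclic ones to slide 2. Endothelial (miR-126), smooth muscle (miR-143, miR-145) and fibroblast (miR-199a) miRNAs and the gonad-enriched miR-202 were detected, while all 5 entries for striated muscle and both for liver were detected on 0 arrays. Of 8 epithelial entries, hsa-miR-141-3p was detected and 7 were detected on 0 arrays. The summed signal of the red blood cell list (miR-451, miR-144) varied widely in both groups, from 1.27 to 7.22 on the cyclic arrays and from 1.25 to 6.19 on the pregnant ones. The summed signal of the leukocyte list (6 of 11 entries tested) ran from 0.652 to 4.79 on the cyclic arrays and from 0.681 to 0.821 on the pregnant ones. Cyclic replicate 1 had the lowest of these sums, and the other 3 cyclic arrays, at 1.77 or more, lay above every pregnant array. Of the 6 tested entries, 5 had a difference below 0 and 1 above it. The entry miR-155-5p, a miRNA of activated lymphocytes and macrophages, passed limma's test as lower in pregnancy (−0.96 ± 0.25 on the log2 scale, adjusted p = 0.0324). The other 5 did not pass, among them the myeloid hsa-miR-223-3p (limma, −2.29 ± 0.76, adjusted p = 0.0768). A second miR-155 entry, bta-miR-155, had a smaller difference and did not pass either (limma, −0.34 ± 0.20, adjusted p = 0.269). The call of miR-155-5p therefore rests on 1 entry. The differences of mmu-miR-342-3p (−0.10 ± 0.20) and ssc-miR-150 (0.01 ± 0.20) were near 0. The summed fibroblast signal ran from 3.57 to 8.49 on the cyclic arrays and from 3.85 to 4.31 on the pregnant ones. Again cyclic replicate 1 was lowest, and the other 3 cyclic arrays lay above every pregnant array. Of the 5 tested fibroblast entries, the 4 of miR-199 had a difference below 0 and miR-214 had one above it (0.11 ± 0.20). None of the 5 passed limma's test. The part of these signals in the results on miR-30 was not tested. In tissue samples, fewer cells of a type and less RNA per cell cannot be told apart.

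Of the 11 miR-30 targets, 6 were detected on all 8 arrays: the guide strands miR-30a-5p, miR-30b-5p, miR-30c-5p, miR-30d and miR-30e-5p, and the 3p strand miR-30e-3p. The 3p strand of miR-30a was detected on 2 arrays. The other four, ssc-miR-30b-3p, ssc-miR-30c-3p, ssc-miR-30c-1-3p and hsa-miR-30d-3p, were detected on 0 arrays, and the intensity of their brightest probes did not exceed 5.08, 0.865, 6.30 and 5.53. The median intensity of the negative control spots was 0.437 to 1.29. The 6 detected on all arrays entered the test of pregnant against cyclic tissue, which covered the 212 targets detected on at least 4 arrays. Values below are log2 of the signal divided by the array's 75th percentile, and levels of different targets cannot be compared because each probe has its own affinity.

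The comparison asked whether the family differed between glands maintained by early pregnancy and glands near the end of the cycle. None of the 6 tested members passed limma's test (0 of 6 at an adjusted p under 0.05), where 11.3% of all tested targets did, 5.19% as higher and 6.13% as lower in pregnancy. At an unadjusted p under 0.05 the count was 1 of 6, a higher one, against 34.4% of all tested targets, 18.9% as higher. The point estimates were small and above 0: the 6 differences ran from 0.02 to 0.31 on the log2 scale with a median of 0.12, beside a median of 0.00 for all 212 targets, of which 107 (50.5%) were above 0. Measured from the median of all tested targets in the same setting, miR-30b-5p and miR-30e-5p lay above it in the reported setting, by 0.02 and 0.03, and below it under quantile normalization, by −0.11 and −0.03, and in the authors' table, by −0.06 and −0.03. Without cyclic replicate 4 miR-30e-5p lay below it (−0.035), and over the targets detected on all 8 arrays miR-30b-5p lay about at it (−0.0011). A common direction of all 6 therefore depended on the normalization, on a single array and on the set of targets. With no scaling and with the scanner's total gene signal both differences themselves fell below 0, but so did the median of all targets, and both stayed 0.02 to 0.03 above it. The members varied little between arrays of a group. Their residual SD had a median of 0.14 (range 0.08 to 0.17), beside 0.22 for the 166 targets detected on all arrays.

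**Figure D1:**
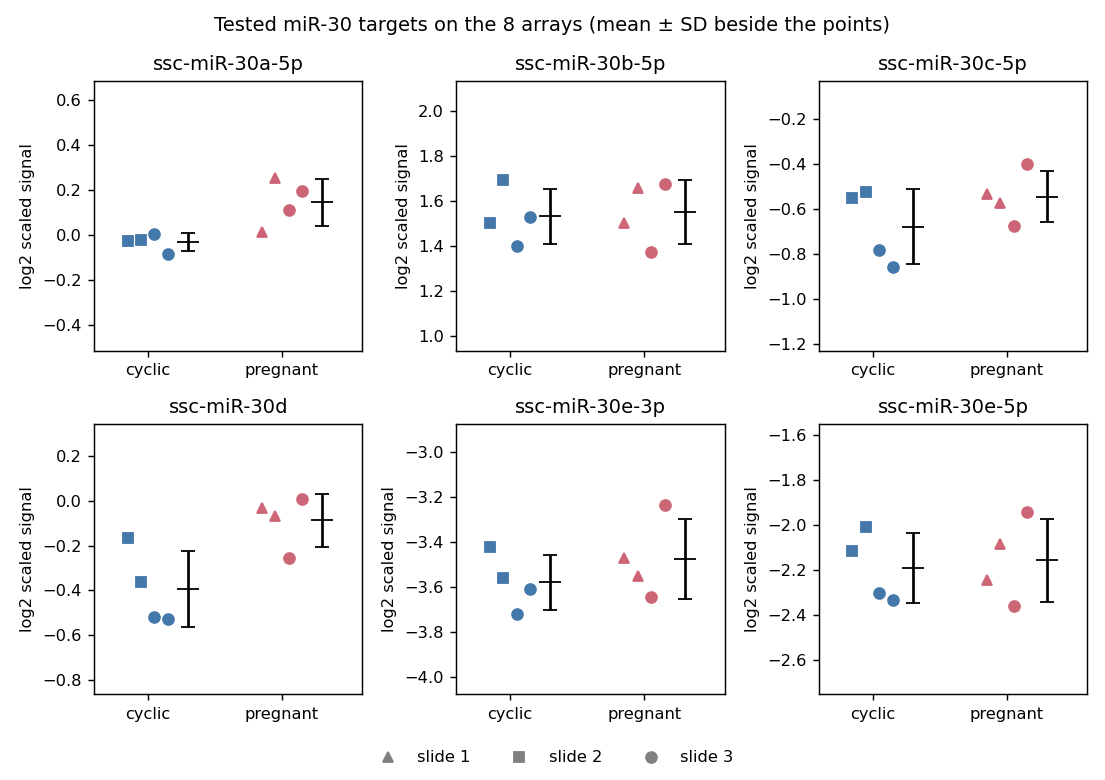
Each panel plots the log2 scaled signal (vertical axis, the same span of 1.2 in each panel) of a tested miR-30 target on the 4 cyclic and 4 pregnant arrays, with symbols for the slide and the group mean ± SD in black. The groups lie apart for miR-30a-5p and overlap for the other 5.

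The largest difference belonged to ssc-miR-30d, the only strand of this hairpin with a porcine entry and the neighbour of miR-30b. It read −0.17, −0.36, −0.52 and −0.53 on cyclic replicates 1 to 4 and −0.03, −0.07, −0.26 and 0.01 on pregnant replicates 1 to 4. The groups overlapped through a single pair of arrays, since cyclic replicate 1 lay above pregnant replicate 3. The means were −0.39 ± 0.17 in the cycle and −0.09 ± 0.12 in pregnancy (SD, n = 4), a difference of 0.31 ± 0.13 (SE). This corresponds to 1.24-fold, with a 95% confidence interval from 1.02-fold to 1.50-fold. The unadjusted limma p was 0.0346 and the adjusted p 0.133, so miR-30d did not pass, and it ranked 55th of 212 targets by p. Its second, dimmer probe gave 0.40, from −1.69 ± 0.23 to −1.29 ± 0.16.

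The call of miR-30d depended on a single cyclic array. Without cyclic replicate 1 the difference was 0.38 ± 0.12 and passed (limma, adjusted p = 0.0238). In that fit 38.2% of all tested targets passed, 19.3% as higher. Over all alternatives the adjusted p ran from 0.0182 to 0.651 and the difference stayed between 0.23 and 0.60. On slide 3, the slide that held both groups, the pregnant arrays (−0.26 and 0.01) lay above the cyclic ones (−0.52 and −0.53), a difference of 0.40 (adjusted p = 0.205). Scaling to the 75th percentile over all probes gave 0.60 (adjusted p = 0.0182). That setting raised the median of all tested targets to 0.30 and called 25.9% of them as higher.

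**Figure D2:**
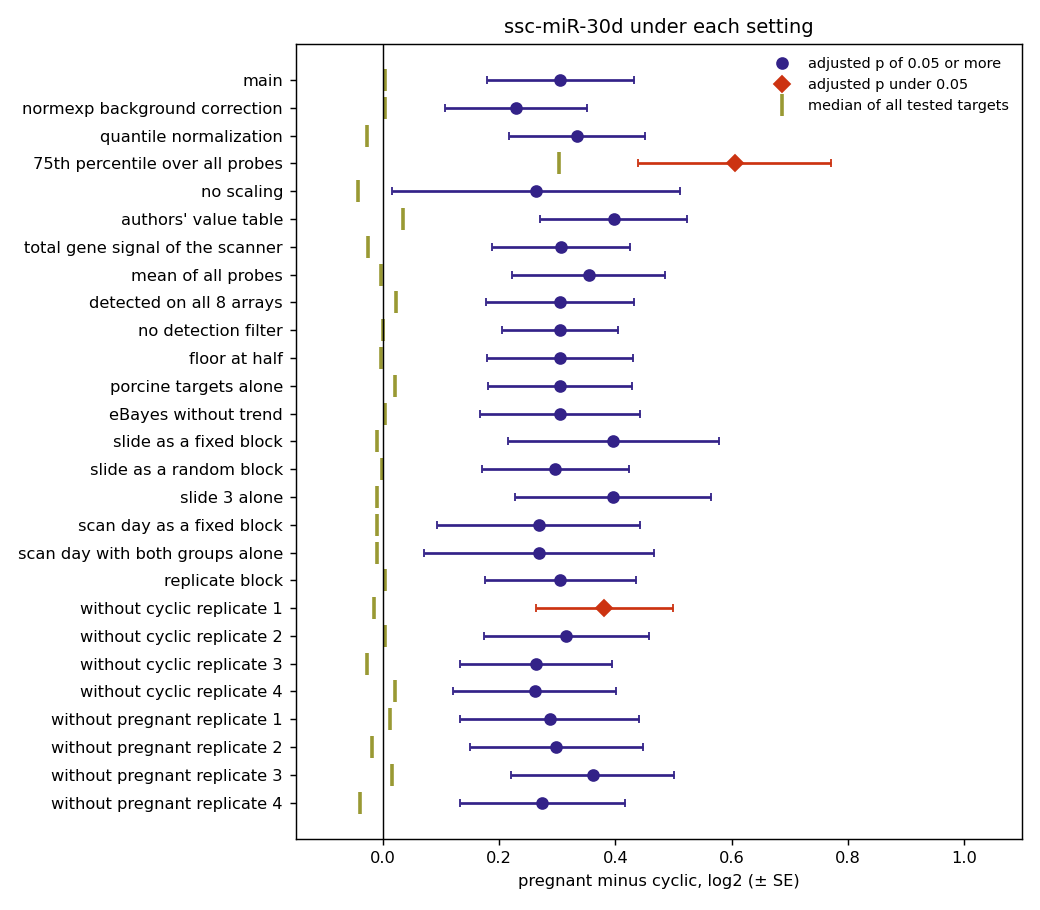
The log2 difference of miR-30d, pregnant minus cyclic (horizontal axis, point ± SE), is plotted for the reported setting ("main") and each alternative (rows), with the median of all tested targets as a vertical tick. Every point lies above 0, and the 2 red diamonds, without cyclic replicate 1 and with scaling over all probes, mark the settings with an adjusted p under 0.05. Rows that change only the detection filter, floor, set of targets, variance model or replicate block repeat the reported difference.

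For miR-30a-5p, the guide strand known to target BECN1, all 4 pregnant arrays lay above all 4 cyclic ones. The cyclic replicates read −0.03, −0.02, 0.01 and −0.09, and the pregnant replicates 0.02, 0.26, 0.11 and 0.20. Pregnant replicate 1 cleared the highest cyclic array narrowly, and the other 3 stood further off. The difference was 0.18 ± 0.11 (SE; 1.13-fold, 95% interval 0.96-fold to 1.33-fold) and did not pass limma's test (adjusted p = 0.281). Groups that do not overlap with pregnancy above were found in 9.91% of all tested targets. The 3 probes of miR-30a-5p gave 0.17, 0.17 and 0.18, and the groups overlapped in the other two probes. It passed in 1 alternative, the scaling over all probes, at 0.48 (adjusted p = 0.0247).

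miR-30c-5p read −0.55, −0.52, −0.78 and −0.86 on the cyclic arrays and −0.53, −0.58, −0.68 and −0.40 on the pregnant ones. Both cyclic arrays of slide 2 lay among the pregnant values, and both of slide 3 lay below them. Its difference was 0.13 ± 0.13 (95% interval 0.90-fold to 1.33-fold, adjusted p = 0.549). On slide 3 pregnant replicates 3 and 4 (−0.68 and −0.40) were above cyclic replicates 3 and 4 (−0.78 and −0.86), a difference of 0.28. Without cyclic replicate 4 the difference over all arrays was 0.07, and without pregnant replicate 4 it was 0.08.

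The values of miR-30b-5p, which shares its locus with miR-30d, were 1.50, 1.70, 1.40 and 1.53 in the cycle and 1.50, 1.66, 1.37 and 1.68 in pregnancy. The groups covered nearly the same range, and the difference was 0.02 ± 0.12 (adjusted p = 0.939). The 95% interval ran from 0.85-fold to 1.21-fold. All 3 of its probes gave 0.02.

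For miR-30e both strands were measured. The guide strand miR-30e-5p read −2.11, −2.01, −2.30 and −2.33 in the cycle and −2.24, −2.08, −2.36 and −1.94 in pregnancy, a difference of 0.03 ± 0.15 (0.81-fold to 1.29-fold, adjusted p = 0.933). The 3p strand miR-30e-3p read −3.42, −3.56, −3.72 and −3.61 in the cycle and −3.47, −3.55, −3.65 and −3.23 in pregnancy, a difference of 0.10 ± 0.16 (0.85-fold to 1.36-fold, adjusted p = 0.726). In both strands the groups overlapped and pregnant replicate 4 was the highest array. Without it the difference of miR-30e-3p was 0.02 and that of miR-30e-5p −0.04. The dimmer probe of miR-30e-3p was detected on 3 arrays.

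**Figure D3:**
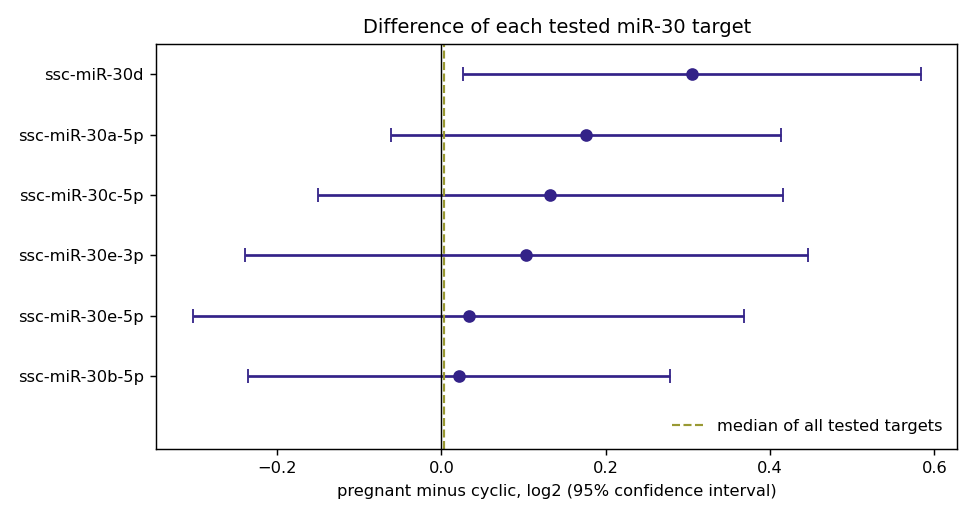
Points give the log2 difference, pregnant minus cyclic (horizontal axis), of the 6 tested miR-30 targets (rows) with limma's 95% confidence intervals, and the dashed line marks the median of all 212 tested targets. The interval of miR-30d, 0.03 to 0.58, lies above 0 before adjustment, and the other 5 span 0.

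Differences within an array do not depend on how arrays are scaled, so each pair of tested members was also compared this way. Of 15 pairs, 0 passed after Benjamini-Hochberg adjustment over the pairs, and 2 reached 0.0286, the smallest 2-sided p that an exact permutation test of 4 against 4 arrays can give. At least 9 pairs would have had to reach that p for any to pass. Both pairs at that p included miR-30d, the member with the largest difference, so they are not independent of that difference. No share over pairs of other tested targets is given beside this count, so it is not read as particular to the family. The count also depended on the processing. Under an unadjusted p of 0.05 it was 0 with normexp background correction and without pregnant replicate 1, 2 or 3. It was 3 with quantile normalization, in the authors' table and without cyclic replicate 1. Relative to miR-30e-5p, miR-30d stood at 1.95, 1.65, 1.79 and 1.81 on the cyclic arrays and at 2.21, 2.01, 2.10 and 1.95 on the pregnant ones, a difference of 0.27 (exact permutation p = 0.0286, adjusted p = 0.214). The groups were barely apart, with cyclic replicate 1 and pregnant replicate 4 the closest arrays. miR-30c-5p minus miR-30d was −0.29 ± 0.10 in the cycle and −0.46 ± 0.05 in pregnancy (SD, n = 4; exact permutation p = 0.0286, adjusted p = 0.214).

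The pairs of neighbouring genes were read in the same way. miR-30b-5p minus miR-30d was 1.93 ± 0.18 in the cycle and 1.64 ± 0.08 in pregnancy, a difference of −0.28 (exact permutation p = 0.0857, adjusted p = 0.321), with cyclic replicate 1 among the pregnant arrays. miR-30a-5p minus miR-30c-5p differed by 0.04 (exact permutation p = 0.514), and miR-30c-5p minus miR-30e-5p by 0.10 (exact permutation p = 0.171). The 2 strands of the miR-30e hairpin, 3p minus 5p, stood at −1.39 ± 0.12 in the cycle and −1.32 ± 0.11 in pregnancy, a difference of 0.07 (exact permutation p = 0.429).

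**Figure D4:**
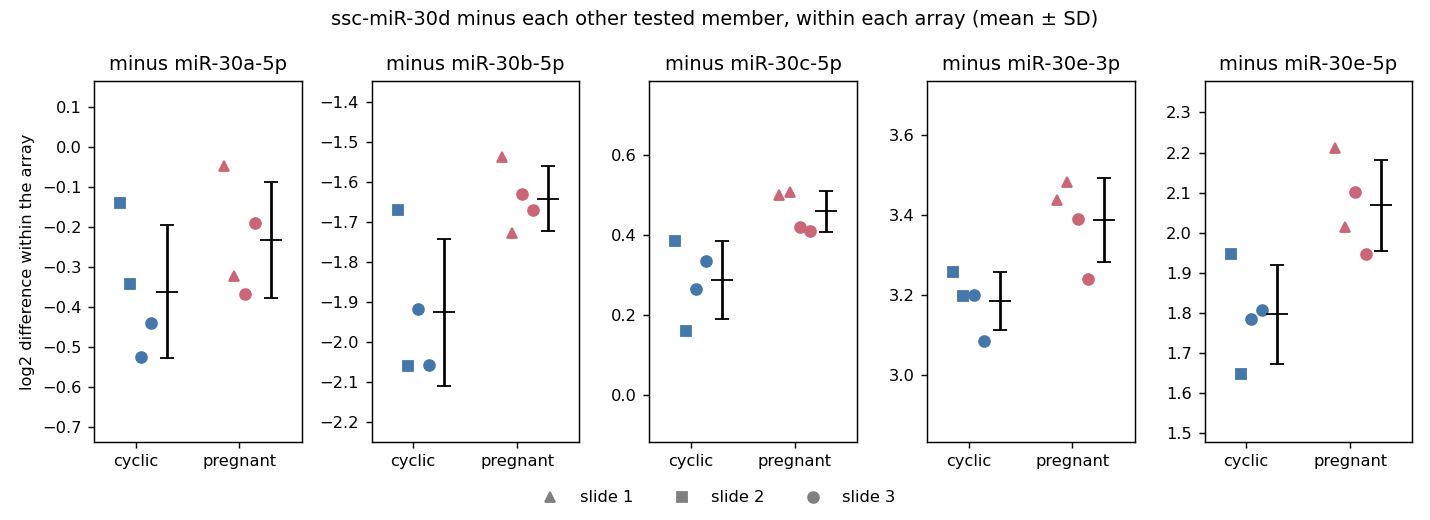
Each panel plots the log2 difference between miR-30d and another tested member within the same array (vertical axis, the same span of 0.9 in each panel), with symbols for the slide and the group mean ± SD. miR-30d is shown because it had the largest difference of the 6, and the groups are apart in 2 panels, against miR-30c-5p and miR-30e-5p.

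The 3p strand of miR-30a, the passenger of a guide whose groups did not overlap, was too dim to be tested. It was detected on 2 pregnant arrays, replicates 1 and 3, and on 0 cyclic arrays. Relative to the array's 75th percentile and without a floor, its signal was 0.0255, 0.0261, 0.0257 and 0.0297 on the cyclic arrays and 0.0360, 0.0391, 0.0423 and 0.0397 on the pregnant arrays. In this probe all 4 pregnant arrays were higher, at linear intensities of 4.96 to 12.7 over all arrays. The same held for 2.11% of the 474 untested targets, of which 446 were detected on 0 arrays, and for 9.91% of the tested targets. The other probe of miR-30a-3p was detected on 0 arrays, and its groups overlapped (0.0176 to 0.0288 in the cycle, 0.0264 to 0.0407 in pregnancy). The cyclic level has only an upper bound. That bound was set on cyclic replicates 1 to 3 by the dimmest probe well above background. On cyclic replicate 4 it was the target's own signal, which was higher (0.0297 against 0.0292). Against the bound the pregnant mean was no higher (log2 −4.67 against −4.67), so no fold is given.

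**Figure D5:**
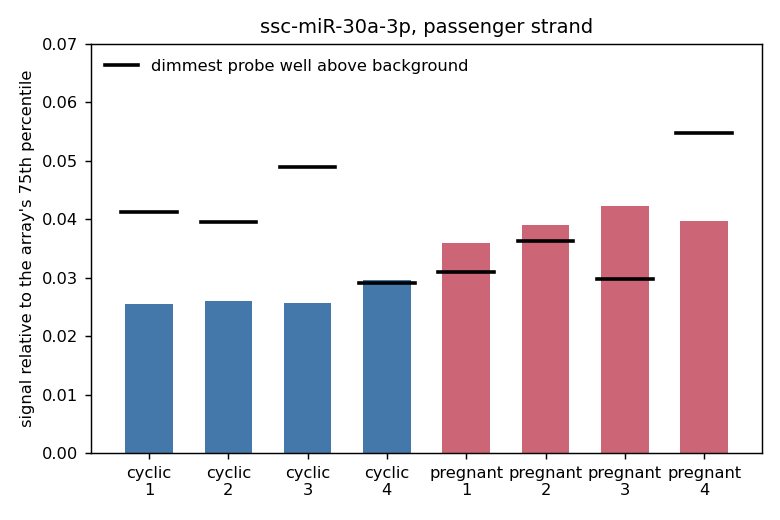
Bars give the signal of the brighter probe of ssc-miR-30a-3p relative to the array's 75th percentile (vertical axis, from 0) on each array, and black lines the dimmest probe that was well above background on that array. The pregnant bars (0.0360 to 0.0423) are all taller than the cyclic ones (0.0255 to 0.0297), and on pregnant replicate 4 and cyclic replicates 1 to 3 the bar ends below the line.

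The members moved together from array to array within the groups. After each group's mean was removed, the correlation between 2 members over the 8 arrays had a median of 0.64 over the 15 pairs (0.09 to 0.89), beside 0.09 over the 13695 pairs of targets detected on all arrays. miR-30e-5p with miR-30c-5p (0.89) and miR-30e-5p with miR-30b-5p (0.87) were the closest pairs, and the 3 lowest all contained miR-30a-5p. Values of an array share its labelling and scaling, and no test was made. On cyclic replicates 3 and 4, 0 of the 6 members lay above their own mean over the 8 arrays, on pregnant replicate 3 it was 1, and on pregnant replicate 4 all 6. These arrays share slide 3. Pregnant replicate 4 was also the dimmest array, with a 75th percentile intensity of 189 and 181 targets detected. The 75th percentile intensity of cyclic replicate 3, with 0 members above their mean, was 193. The part of brightness in these shifts was not tested.

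Among the 206 other tested targets, the pattern most like that of miR-30d over the 8 arrays was that of miR-423-3p (Pearson r = 0.98, Spearman rho = 1.00), followed by miR-331-3p (r = 0.95, rho = 0.95) and miR-107 (r = 0.95, rho = 0.90). They were picked for this likeness, so the correlations carry no test. Leaving out cyclic replicates 3 and 4, the arrays farthest from the median of miR-30d, gave r of 0.98, 0.99 and 0.91. The differences between pregnancy and cycle were 0.61 ± 0.22 for miR-423-3p, which was detected on 7 arrays, 0.35 ± 0.14 for miR-331-3p and 0.29 ± 0.13 for miR-107, and none of the 3 passed limma's test (adjusted p = 0.0967, 0.119 and 0.135). Within the family, miR-30c-5p had the highest r with miR-30d (r = 0.84, rho = 0.74; r = 0.49 without those arrays), and miR-30e-3p had the highest rho (r = 0.76, rho = 0.81; r = 0.66 without them).

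Other miRNAs that act on the same processes did not pass the test either, where 11.3% of all tested targets did. With 3 to 8 tested entries in a list, a count of 0 lies near that share. Of the miRNAs known to repress CTGF besides miR-30 (10 entries of miR-133, miR-18 and miR-19), 3 were tested and 0 passed in either direction. Their differences had a median of −0.31, opposite in sign to that of the miR-30 members: −0.34 ± 0.18 for miR-19a (adjusted p = 0.229), −0.30 ± 0.15 for miR-19b (adjusted p = 0.168) and −0.31 for miR-18a. The remaining 7, including both arms of miR-133a, were detected on 0 arrays. Of 15 entries for miRNAs that hold back epithelial-mesenchymal transition, 3 were tested and 0 passed, with a median of 0.04. They were miR-34a (0.08 ± 0.13), hsa-miR-141-3p (0.04 ± 0.19) and hsa-miR-203a-3p (−0.45 ± 0.19, adjusted p = 0.134). All other members of the miR-200 family on the array were detected on 0 arrays.

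Of 14 entries for miRNAs of angiogenesis and endothelial cells, 8 were tested and 0 passed (11.3% of all tested targets did), with a median of 0.08. The endothelial miR-126-3p averaged 2.70 ± 0.12 in the cycle and 2.87 ± 0.14 in pregnancy (SD, n = 4), a difference of 0.16 ± 0.12 (SE, adjusted p = 0.362). Its other arm, miR-126-5p, went the other way, with a difference of −0.08 ± 0.14 (limma, adjusted p = 0.758). miR-27a, a member of the miR-23a cluster, averaged 2.23 ± 0.41 and 1.73 ± 0.31, a difference of −0.49 ± 0.21 (adjusted p = 0.135). miR-384, whose 5p strand is usually counted with the miR-30 seed family, had only a mouse entry of its 3p strand, detected on 0 arrays, so its 5p strand was not measured.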

How the data were processed

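Per the file headers, the authors made the deposited intensity values, 1 file for each array, with Agilent Feature Extraction 10.7.3.1 (10.7 per the submitters' processing notes), which subtracted the background and removed spatial trends. The authors' deposited value table is on a log2 scale, with every spot centred on its median over the arrays (99.99% of spots). Its direction followed the scanner values (r from 0.78 to 0.97 over 1413 bright spots), and its scaling stays unknown. Column medians were 0.0108, −0.000283, 0.000689 and −0.000205 for cyclic and −0.000302, 9.45e-05, −9.45e-05 and 0.0318 for pregnant replicates 1 to 4. The authors' deposited columns of cyclic replicates 2 and 4 were named a score, since they held 3 cells above 100, read as missing. The table served as an alternative.

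Spots marked as outliers (384 to 453 per array) and 715 control spots were left out. Intensity was averaged over a probe's spots, divided by the array's 75th percentile over targets detected on all arrays (189 to 316), floored at 0.0346 (log2 −4.85) and put on the log2 scale. A target was represented by its brightest probe and detected where at least 0.5 of any probe's spots were well above background. limma 3.58.1 (eBayes with trend) in R 4.3.3 tested 212 targets, with Benjamini-Hochberg adjustment at 0.05. The scripts were tested on simulated data. Figures were drawn with matplotlib 3.10.9.

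Named targets were every miR-30 entry, the 3 others most like miR-30d, and from each list those that passed and the 2 brightest. Any other was named after its values were seen (miR-18a, hsa-miR-203a-3p, miR-214, bta-miR-155, mmu-miR-342-3p, ssc-miR-150). Members, lists and tests were chosen with earlier results of these data known. Per the labels each sample is a biological replicate, and with 4 arrays per group the number of arrays limits the precision. No genome build applies to the array values. The miR-30 strands are close relatives in sequence, and binding of a member to another member's probes was not tested. The replicate number is shared between groups in the labels, and its check is given with the processing alternatives.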

Additional observations from a re-analysis of the deposited data

Results flagged for a closer look

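Of 52 group values checked (26 targets in 2 groups of 4 arrays), 3 held an array whose gap to the nearest other array was a large part of the group's range, where chance gives about 1 in 20. None was a miR-30 member. For miR-331-3p, whose pattern resembled that of miR-30d, pregnant replicate 3 read −0.68 and the other pregnant arrays −0.34 to −0.31. For the red blood cell miRNA miR-144, pregnant replicate 1 read −4.74 and the other three lay at the floor of −4.85, so this gap follows from the floor, and 2 of the 3 remain to be read against chance. For the gonad-enriched miR-202-3p, cyclic replicate 1 read −1.06 and the other cyclic arrays −2.54 to −2.49. Cyclic replicate 1 is also the array whose removal brought miR-30d past the threshold.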

How the results depend on the processing

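Of 26 alternatives, 24 gave 0 called miR-30 targets. Scaling over all probes gave 2 (miR-30d and miR-30a-5p), and leaving out single arrays gave 0 to 1. The median difference of the 6 members was 0.42 with scaling over all probes, whose median for all targets was 0.30, and 0.05 to 0.17 without single arrays. The difference of miR-30b-5p turned to −0.14 with quantile normalization, −0.021 with no scaling, −0.029 in the authors' table, −0.0061 with total gene signal and −0.0072 with scan day as a block or within the mixed scan day, and ranged from −0.023 to 0.081 without single arrays. miR-30e-5p turned to −0.060, −0.0090 and −0.0038 with quantile normalization, no scaling and total gene signal, and ranged from −0.038 to 0.10 without single arrays. With no scaling, total gene signal and scan day the median of all targets fell too, to −0.043, −0.026 and −0.0095, and both members stayed above it. The cause of the turns with quantile normalization and in the authors' table was not tested. The other four members stayed above 0 in all 26, but not every alternative could change a difference. The detection filters, the halved floor, porcine targets alone, eBayes without trend and the replicate block repeated the reported differences exactly. Slide and scan day as fixed blocks repeated slide 3 alone and the mixed scan day. Sizes varied among the rest. Without single arrays miR-30c-5p ranged from 0.072 (cyclic replicate 4) to 0.18 and miR-30e-3p from 0.023 (pregnant replicate 4) to 0.16. miR-30e-3p was 0.050 with normexp, 0.23 with total gene signal and 0.24 in the authors' table. Over all targets 24 passed (11 higher, 13 lower). The count was 11 with normexp, 62 (55 higher, 7 lower) with scaling over all probes, 9 (3 higher, 6 lower) with no scaling, 12 with total gene signal, 1 without a detection filter, 9 within slide 3, 2 with scan day as a block, 2 within the mixed scan day and 24 (14 higher, 10 lower) in the authors' table. Without single arrays it ran from 7 (cyclic replicate 3, pregnant replicate 4) to 81 (cyclic replicate 1), through 9 and 12 without cyclic replicates 4 and 2 and 10, 10 and 11 without pregnant replicates 1, 2 and 3. Without a detection filter miR-30a-3p had an adjusted p of 0.324 over 686 targets. The samples were not treated as paired by replicate number. Deviations of same-numbered samples correlated weakly, at 0.10, 0.098, −0.18 and 0.16. However, 4 of 8 samples correlated best with their own number, and whether the numbers pair the samples was not tested. With the replicate block 26 targets and 0 miR-30 targets passed, and miR-30d differed by 0.31 (limma, adjusted p = 0.150). The count of called pairs was 0 in all 15 alternatives run for it; it was not run within slide 3 or the mixed scan day, where too few arrays remained. No value could be had within slide 1 or slide 2, which carried 1 group each.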
